A study of Mus musculus with 40 samples.

Results

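The transcriptome of the SCA6 84Q/+ cerebellum at 19 months was compared with that at 12 months. The comparison used 10 of the 40 libraries of the series, chosen by genotype and age as the labels give them: 5 SCA6 libraries at each age. SCA6 84Q/+ mice are heterozygous and carry an expanded CAG repeat knocked into one endogenous allele of Cacna1a, and they were recovered from frozen embryos of a single deposited line. Untreated WT mice of the same ages, 5 libraries at 12 and 5 at 19 months, gave the values set beside those of SCA6. Polyadenylated RNA of the cerebellum was sequenced. The labels give neither strain nor sex, and the samples were prepared individually, although it is not stated that each came from a separate animal, so p-values measure the spread between these samples. Every gene with a normalised read count (CPM, counts scaled to library size) of 1 or more in each library of either age was tested, 13264 of the 21967 genes counted.

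Cacna1a encodes the channel-forming part of a voltage-gated calcium channel of the P/Q type, which is abundant in Purkinje neurons, the output cells of the cerebellar cortex. In this model, per the study, motor impairment and irregular Purkinje firing are present at the later of the ages compared here, so the comparison asks what differs in the tissue between an age before and an age after that onset. Ageing brain tissue is known for rising transcripts of microglia, of the complement system, whose proteins tag material for removal, and of reactive astrocytes. Endoplasmic reticulum (ER) chaperones fold secreted proteins and are induced by the unfolded protein response, and they were the main subject of the study.

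Cacna1a (GRCm38 chromosome 8, 84388440 to 84640246) was counted at 318, 342, 292, 356 and 329 CPM in the 12 month SCA6 libraries and at 318, 295, 268, 322 and 293 CPM in the 19 month libraries. The groups overlapped, with a log2 fold change of −0.12 ± 0.06 (SE; adjusted p = 0.45 by edgeR's quasi-likelihood test). Counts per gene do not tell the alleles apart, so they do not check the genotype labels. Library totals were 44017163 to 61907241 counts at 12 months and 45757345 to 62712099 at 19 months. Y-linked transcripts were present in 1 of the 5 libraries at 12 months and in 3 of 5 at 19 months, against 4 of 5 and 5 of 5 in WT. The sample descriptions also hold an ID number of unstated meaning. Replicates 1 and 2 at 12 months have ID number 1, replicates 3 and 4 have 2 and replicate 5 has 3, while at 19 months these pairs and the last library have 9, 12 and 14. No ID number occurs at both ages, so ID number and age cannot be told apart. By single genes SCA6 12 months replicate 2 stood furthest apart. In it 46 genes were at 2 or more times the highest of the other 9 libraries. The count was 15 in 19 month replicate 5 and at most 1 in any other. Replicate 5 at 12 months stood off in ER chaperone genes, as given below.

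No gene was called by edgeR at an adjusted p of 0.05 and a log2 fold change of 0.3 (0% of 13264). An unadjusted p under 0.05 was reached by 1674 genes (12.6%), 765 higher (5.77%) and 909 lower at 19 months (6.85%). The smallest adjusted p was 0.0563, shared by C3, Serpina3n, Gpr63, Tet1, Frrs1l and 1 unnamed gene model, and 22 genes had an adjusted p under 0.1. In 99 genes every 19 month library was above every 12 month library (0.746%), and in 380 every one was below (2.86%). On the same counts DESeq2 called 68 genes (0.513%), 50 higher (0.377%) and 18 lower (0.136%), and limma voom with quality weights called 22 (0.166%), 11 in each direction, all of them among the 68. Of the DESeq2 calls, 64 were also tested in WT, where 62 had the same sign, as did 65.9% of all 13186 genes tested in both, and DESeq2 called 19 in both genotypes. SCA6 and WT libraries share ID numbers at both ages, so these signs are not independent. The difference in age change between the genotypes was itself tested by edgeR over 20 libraries and 13321 genes. No gene was called by edgeR or DESeq2 (0%). An unadjusted p under 0.05 was reached by 889 genes with edgeR (6.67%) and 967 with DESeq2, and the smallest edgeR adjusted p was 0.712.

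Complement, astrocyte and microglia genes were among the higher genes with the smallest p-values. C3, the central complement protein (chromosome 17, 57203970 to 57228136), was at 2.67, 2.23, 1.70, 3.34 and 3.28 CPM at 12 months and at 4.12, 9.04, 6.95, 7.61 and 9.68 CPM at 19 months. Serpina3n, a secreted protease inhibitor of reactive astrocytes (chromosome 12, 104406729 to 104414329), was at 3.36, 4.18, 3.37, 3.86 and 3.49 CPM against 4.57, 9.85, 9.88, 9.49 and 8.58. Neither gene's groups overlapped, and in both the lowest 19 month library was replicate 1. The log2 fold changes were 1.5 ± 0.23 for C3 and 1.22 ± 0.18 for Serpina3n (SE; adjusted p = 0.0563 by edgeR, 5.4e-08 by DESeq2, 0.022 by voom, for each). In WT the log2 fold changes were 0.92 and 1.15 (adjusted p = 0.20 and 0.052 by edgeR).

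Gfap, the intermediate filament of astrocytes (chromosome 11, 102887336 to 102900912), was at 163, 150, 169, 161 and 200 CPM at 12 months and 185, 274, 277, 268 and 354 CPM at 19 months. Here 19 month replicate 1 again lay lowest, within the 12 month range, and the other 4 lay above it (log2 fold change 0.70 ± 0.13, adjusted p = 0.093 by edgeR and 6.9e-05 by DESeq2). Apoe, a lipid carrier made by astrocytes and activated microglia, went from 574 to 704 CPM at 12 months to 696 to 866 at 19 months, a log2 fold change of 0.34 ± 0.07 (adjusted p = 0.10 by edgeR, 0.00082 by DESeq2). Vim, another filament gene, had a log2 fold change of 0.21. Of the 18 astrocyte and Bergmann glia markers tested, 5 were higher and none lower at an unadjusted p under 0.05 (5.77% and 6.85% of all genes). The list's median log2 fold change was 0.04, against 0.00 over all genes.

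**Figure D1:**
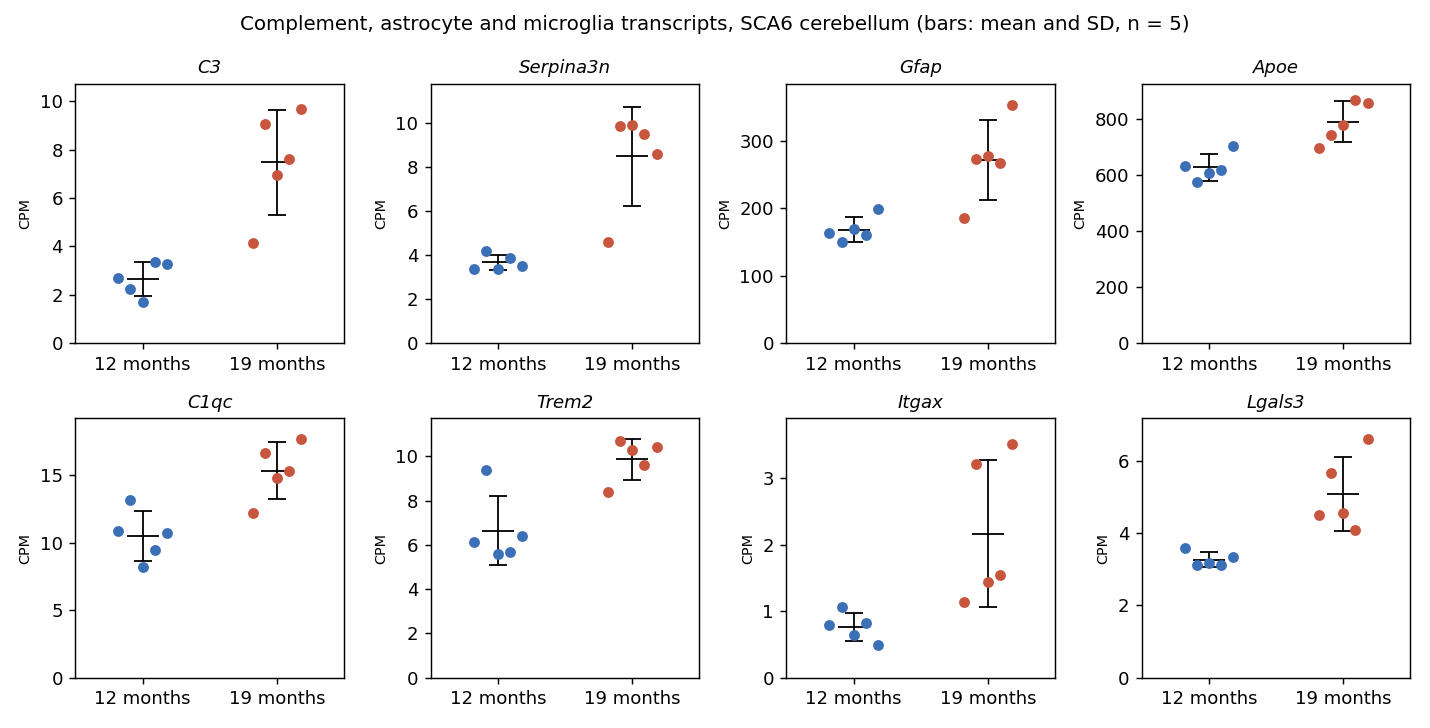
Abundance of 8 complement, astrocyte and microglia transcripts in the SCA6 libraries (y axis: CPM, from 0; points: libraries in replicate order; bars: mean and SD, n = 5 per age). C3 at 19 months sits between 4.12 and 9.68 CPM, above every 12 month library, while Trem2 at 12 months has a high library at 9.38 CPM, replicate 2.

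Of 12 complement genes tested, 8 were higher at an unadjusted p under 0.05 and none lower (5.77% and 6.85% of all genes). The median log2 fold change was 0.44 (WT 0.36). C1qc, a chain of the initiating C1q complex, was at 10.9, 13.2, 8.20, 9.43 and 10.7 CPM at 12 months and at 12.2, 16.7, 14.8, 15.3 and 17.7 at 19 months. Its log2 fold change was 0.56 ± 0.12 (adjusted p = 0.12 by edgeR, 0.0023 by DESeq2). C3ar1, the receptor of a C3 fragment, had a log2 fold change of 0.55 ± 0.14. C4b, which lies upstream of C3 in the classical pathway, was at 28.4 to 37.6 CPM in 4 of the 12 month libraries and at 72.8 in replicate 2, against 42.0 to 70.6 at 19 months. With that library its log2 fold change was 0.52 (adjusted p = 0.39 by edgeR), and without it 0.84 (adjusted p = 0.064).

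All 16 tested genes of the disease-associated microglia list, which microglia express around damage, had a log2 fold change above 0 (50.6% of all genes did). Of these, 14 were higher at an unadjusted p under 0.05 (5.77% of all genes were). DESeq2 called 7, all higher (0.377% of all genes), and the median was 0.38 (WT 0.28). Itgax, an integrin subunit that marks this state, was at 0.796, 1.06, 0.648, 0.816 and 0.487 CPM at 12 months and at 1.14, 3.21, 1.44, 1.54 and 3.51 at 19 months. Its groups did not overlap, at low counts, with a log2 fold change of 1.5 ± 0.33 (adjusted p = 0.12 by edgeR). Lgals3, a galectin, was at 3.12 to 3.59 CPM against 4.10 to 6.62 (0.64 ± 0.13, adjusted p = 0.10), and Lpl, a lipase, at 1.83 to 3.12 against 2.61 to 7.0 (1.00 ± 0.22, adjusted p = 0.12). DESeq2 called Itgax, Lgals3 and Lpl (adjusted p = 0.0014, 0.0012 and 0.0023). Of 16 general microglia markers, 7 were higher at that unadjusted p and none lower (5.77% and 6.85% of all genes), with a median of 0.29 (WT 0.27). Their summed level was 273 to 286 CPM at 12 months but 408 in replicate 2, against 318 to 409 at 19 months.

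Trem2, a microglial lipid receptor, was at 6.13, 9.38, 5.61, 5.67 and 6.4 CPM at 12 months against 8.37, 10.7, 10.3, 9.59 and 10.4 CPM at 19 months. Only 12 month replicate 2 overlapped the older group. The log2 fold change was 0.58 ± 0.13 (adjusted p = 0.13 by edgeR) and 0.74 without that library, where edgeR called it (adjusted p = 0.038), along with Ostn and Ifitm3 (both 0.049) and no other gene (0.0226% of those tested). Tyrobp, the signalling partner of Trem2, had a log2 fold change of 0.50 with all libraries and 0.63 without replicate 2. In bulk tissue more cells of a type and more RNA per cell cannot be told apart. The lysosome list held 10 genes that were higher of 27 tested at an unadjusted p under 0.05 (5.77% of all genes). Its median was 0.09 (0.048 without ID number 12, WT 0.02). Gusb, a lysosomal enzyme, was at 13.4 to 15.3 against 15.6 to 16.8 CPM, Ctsh, a cathepsin, at 10.7 to 14.7 against 14.1 to 16.7, and Cd68, a macrophage lysosomal protein, at 4.57 to 6.27 against 4.92 to 10.7.

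Mean levels at the earlier ages are given beside these differences. C3 averaged 1.41 ± 0.38 CPM (SD, n = 5) in SCA6 cerebella at 3 months and 1.61 ± 0.43 at 6 months, before 2.64 ± 0.70 at 12 and 7.48 ± 2.2 at 19 months. Trem2 averaged 4.10, 3.91, 6.64 and 9.87 CPM at these ages, and C1qc 7.72, 7.03, 10.5 and 15.3, so that both were also higher at 12 than at 6 months in mean. Gfap and Serpina3n, in contrast, averaged 176, 160 and 169 CPM and 3.99, 3.21 and 3.65 CPM at the first 3 ages, and were highest at 19 months (272 and 8.48). The 12 month means include replicate 2, at 9.38 CPM for Trem2. No test was made over the 4 ages. In SCA6 each age has its own ID numbers, so age and ID number cannot be told apart here either. The share of libraries with Y-linked transcripts was also not the same at every age.

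The lower transcripts with the smallest p-values differed by small amounts, with little spread between libraries. Gpr63, an orphan receptor expressed in brain (chromosome 4, 24966407 to 25009233), was at 43.6, 44.6, 41.9, 45.1 and 45.2 CPM at 12 months and 31.5, 33.5, 36.9, 35.9 and 32.6 at 19 months. Tet1, an enzyme that oxidises methylated cytosine (chromosome 10, 62804570 to 62908996), was at 47.7, 49.8, 48.1, 46.5 and 42.4 CPM against 38.5, 36.3, 34.5, 36.7 and 36.1. Frrs1l, an AMPA receptor assembly protein (chromosome 4, 56957173 to 56990391), was at 615 to 655 CPM against 530 to 543. None of these groups overlapped. The log2 fold changes were −0.36 ± 0.05, −0.36 ± 0.05 and −0.25 ± 0.04 (SE; adjusted p = 0.0563 for each by edgeR), so Frrs1l lay below the fold threshold. DESeq2 called Gpr63 and Tet1 (adjusted p = 1.4e-07 and 2.7e-07).

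Ptar1, a prenyltransferase subunit, was at 26.1 to 29.7 CPM against 18.7 to 22.1 (log2 fold change −0.40), and Bmf, a BH3-only cell death protein, at 19.5 to 23.9 against 13.2 to 17.9 (−0.47). Ky, a muscle protein gene at low level here, was at 2.60 to 3.23 CPM against 1.71 to 2.02 (−0.60). All 3 had an edgeR adjusted p between 0.069 and 0.082 and were called by DESeq2 and voom. In WT these log2 fold changes were −0.31, −0.15 and −0.31, and those of Gpr63, Tet1 and Frrs1l were −0.28, −0.12 and −0.16. Every one had the sign seen in SCA6, and the difference had its smallest unadjusted p among them for Tet1 (0.0034 by edgeR, not called). Ostn, a secreted peptide gene, went the other way, from 3.46 to 6.08 CPM to 6.12 to 9.20 (0.80 in SCA6, 0.84 in WT, where edgeR called it at an adjusted p of 0.044). Gpr63, Tet1, Frrs1l, Ptar1, Bmf, Ky, Ostn and Serpina3n were named after their values were seen. Gpr63 and Ptar1 were highest in mean at 12 months. Gpr63 averaged 36.5 CPM at 3 and 34.5 at 6 months, against 34.1 at 19 months, and Ptar1 averaged 21.8 and 19.1 CPM, against 20.8.

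**Figure D2:**
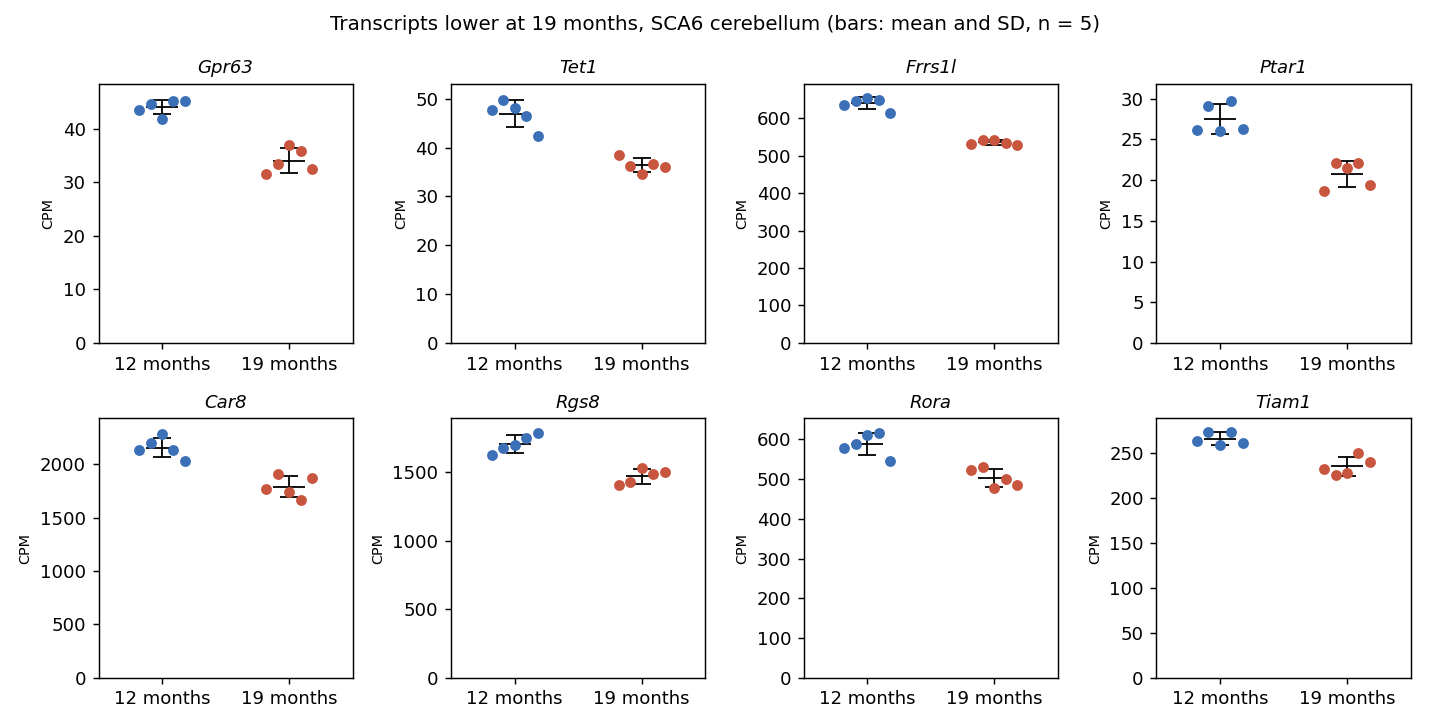
Abundance of 8 transcripts that were lower at 19 months in every SCA6 library than in every 12 month library (y axis: CPM, from 0; points: libraries in replicate order; bars: mean and SD, n = 5 per age). Gpr63 is at 41.9 to 45.2 CPM at 12 months and 31.5 to 36.9 at 19 months.

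Purkinje cell markers were lower by small amounts. Of 26 tested, 9 were lower and none higher at an unadjusted p under 0.05 (6.85% and 5.77% of all genes). In 5 the groups did not overlap, each lower at 19 months (2.86% of all genes). The median log2 fold change was −0.12 (WT −0.14). Car8, a carbonic anhydrase-related protein that binds the inositol trisphosphate receptor, was at 2135, 2200, 2288, 2133 and 2037 CPM at 12 months and at 1771, 1908, 1738, 1667 and 1869 CPM at 19 months. Rgs8, a regulator of G protein signalling, was at 1624, 1678, 1698, 1753 and 1790 CPM against 1404, 1428, 1532, 1491 and 1500. Both had groups that did not overlap, with log2 fold changes of −0.26 and −0.21 (adjusted p = 0.10 and 0.12 by edgeR, 0.00012 and 0.00018 by DESeq2, below the fold threshold). Doc2b, a calcium sensor of vesicle release, was at 110 to 118 CPM against 94.2 to 105 (−0.18), and Rora, a nuclear receptor needed for Purkinje cell maturation, at 546 to 617 against 479 to 530 (−0.22).

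Channels and signalling genes of Purkinje firing and inherited ataxia had a log2 fold change below 0 in 25 of 31 genes, with a median of −0.09 (WT −0.13). Among them 6 were lower and none higher at an unadjusted p under 0.05 (6.85% and 5.77% of all genes). Atp2b2, a plasma membrane calcium pump, was at 648 to 779 CPM against 562 to 664 (log2 fold change −0.20), and Kcna2, a voltage-gated potassium channel, at 485 to 541 against 431 to 483 (−0.13). Itpr1, the calcium release channel of the ER, was at 3705 to 5191 CPM against 3412 to 4109 (−0.24 in SCA6, −0.41 in WT, where edgeR called it at an adjusted p of 0.048). Other channels that the study names gave −0.11 for Cacna1g, −0.11 for Kcnma1 and 0.02 for Kcnn2, with edgeR adjusted p of 0.54, 0.48 and 0.91. Store-operated calcium entry genes had a median of 0.02 over 10 genes. Orai3, a pore subunit, was at 15.8 to 17.5 CPM against 14.6 to 16.3 (−0.13), Orai2 had a log2 fold change of −0.07 and Orai1 of 0.08, the sensors Stim1 and Stim2 of −0.01 and 0.06, and Saraf, which limits this entry, of 0.07. None of these was called.

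Granule cell markers had a median of −0.06, with 3 of 17 lower at an unadjusted p under 0.05 (6.85% of all genes). Tiam1, a Rac activator, was at 258 to 273 CPM at 12 months and 225 to 250 at 19 months (log2 fold change −0.17 ± 0.04), Fat2, a cadherin, had −0.19 and Nfia, a transcription factor, −0.14. Among 8 unipolar brush cell markers, none of the log2 fold changes was above 0, with −0.15 for Tmem163 and −0.09 for Dgkg. Among interneuron genes, Npy, a neuropeptide, was at 8.66 to 9.33 CPM against 6.81 to 8.46 (−0.27 in SCA6 and 0.15 in WT, unadjusted p of the difference 0.043 by edgeR and not called), and the list's median was 0.01. Tfap2b, a transcription factor, had 0.12 in SCA6 and −0.20 in WT, and Sorcs3, a sorting receptor, 0.14 and −0.25 (unadjusted p of the difference 0.0039 and 0.00071 by edgeR, neither called).

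The interferon response list gave opposite medians with and without 1 library. Interferon-stimulated genes are switched on together by signalling from the interferon receptors. All 38 tested members were highest in 12 month replicate 2, at a median of 3.69 times the median of the other 9 libraries, and 26 of them at 2 or more times the highest of these. Oasl2 was at 9.05, 146, 11, 15.2 and 10.4 CPM at 12 months and at 14.7, 19.0, 18.9, 16.1 and 13.6 CPM at 19 months. Ifit1 was at 11.1, 108, 11.1, 18.3 and 10.9 CPM against 18.9, 26.4, 22.5, 24 and 13.7, and Usp18, which damps interferon signalling, at 3.36, 49.8, 3.26, 6.24 and 4.08 against 5.09, 8.94, 7.35, 7.11 and 4.19. Summed over the list, replicate 2 held 2257 CPM, against 815 at most in the other libraries.

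With all libraries the list's median log2 fold change was −0.43, with none of its genes at an unadjusted p under 0.05. Without replicate 2 it was 0.26, with 34 of 38 genes above 0, and in WT it was 0.28. For Oasl2 the log2 fold change was −1.21 ± 0.70 with that library and 0.54 without it. Iigp1, a GTPase against intracellular parasites, had −0.63, and Sp100, a nuclear body protein, −0.31. Iigp1 was also raised in 12 month replicate 1, which shares ID number 1, at 13.5 CPM, as were H2-Q7 (8.06 and 8.72 CPM in these 2 libraries, 1.32 to 2.79 in the other 8) and H2-Q6 (12.1 and 14.6, against 2.76 to 5.51). These class I genes are near copies of each other, so their reads may have been split. The antigen presentation list had a median of −0.05 (0.12 without replicate 2, 0.37 without ID number 1, −0.28 without ID number 2, WT 0.31), and H2-Eb1, a class II gene, had 0.36.

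**Figure D3:**
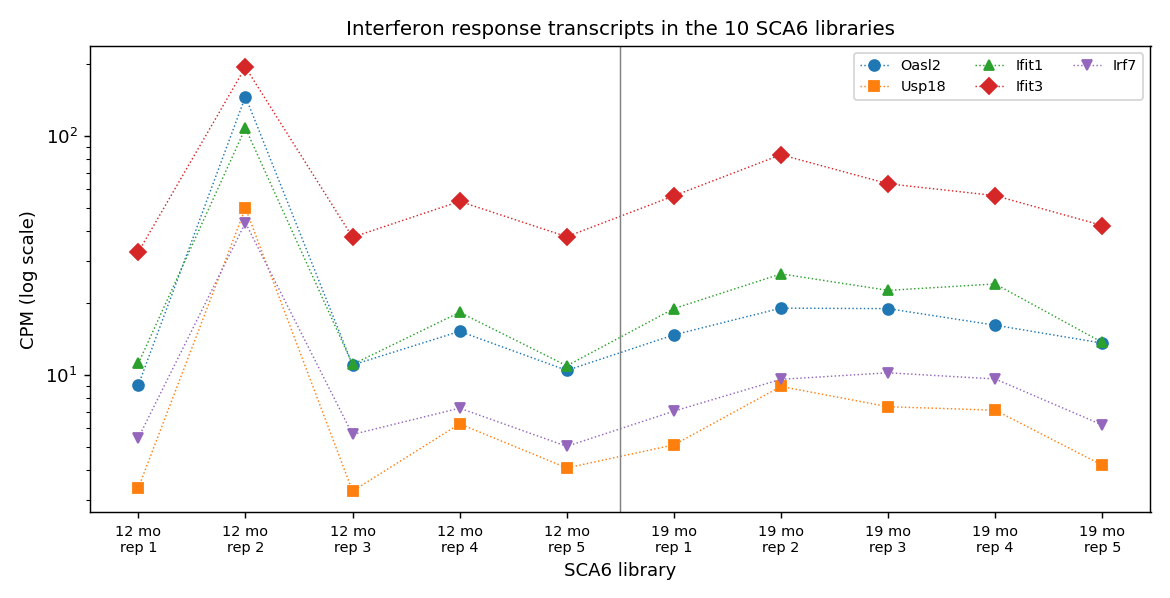
Abundance of 5 interferon response transcripts in each SCA6 library (y axis: CPM on a log scale; x axis: library; the line divides 12 from 19 months). All 5 peak in 12 month replicate 2, where Oasl2 is at 146 CPM, against 9.05 to 19.0 in the other 9 libraries.

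Promoters of 3 of these genes are shown because the list moved together in a single library. They are RefSeq windows of GRCm38.p6 from 250 bases before to 50 after the start, in the direction of the gene, with matches to the interferon-stimulated response element in capitals. The element was searched as TTTC, any 2 bases and TTTC, and on the other strand as GAAA, any 2 bases and GAAA. The Ifit1 window (chr19:34640639-34640938, plus strand) holds 2 matches, that of Isg15 (chr4:156200769-156201068, minus strand) 3 that overlap, and that of Rsad2 (chr12:26456403-26456702, minus strand) 1.
Ifit1: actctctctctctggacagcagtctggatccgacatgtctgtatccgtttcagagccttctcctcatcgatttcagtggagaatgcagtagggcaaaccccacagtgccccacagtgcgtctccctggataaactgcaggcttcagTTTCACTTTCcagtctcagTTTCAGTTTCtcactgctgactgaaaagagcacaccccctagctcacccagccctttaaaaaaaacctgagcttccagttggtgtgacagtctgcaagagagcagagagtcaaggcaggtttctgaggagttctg
Isg15: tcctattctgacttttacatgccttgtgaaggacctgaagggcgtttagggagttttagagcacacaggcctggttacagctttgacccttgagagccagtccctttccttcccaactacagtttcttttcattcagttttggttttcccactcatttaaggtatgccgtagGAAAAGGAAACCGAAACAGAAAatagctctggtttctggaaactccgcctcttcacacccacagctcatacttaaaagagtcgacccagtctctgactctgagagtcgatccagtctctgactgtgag
Rsad2: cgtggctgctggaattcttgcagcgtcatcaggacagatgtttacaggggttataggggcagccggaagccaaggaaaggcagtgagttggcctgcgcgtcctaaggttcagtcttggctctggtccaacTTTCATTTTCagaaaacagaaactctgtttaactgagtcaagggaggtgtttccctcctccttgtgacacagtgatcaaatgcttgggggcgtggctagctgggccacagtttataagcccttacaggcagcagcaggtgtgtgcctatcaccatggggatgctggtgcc

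Of the 38 interferon genes tested, 27 had a window, and 17 of these held the element (63%), against 360 of 9971 over all tested genes with a window (3.61%) and 3.44% of all windows. Isg15, a ubiquitin-like protein, was at 21 CPM in replicate 2 and 3.17 to 6.30 in the other 9 libraries, and Rsad2, an antiviral enzyme, at 21 against 3.33 to 6.80. The search was made after these values were seen, and a match describes letters in a window only.

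Immediate early genes, transcribed within minutes of neuronal activity, differed by ID number within the 19 month group. Fos was at 47.9, 41.4, 51.5, 46.4 and 36.7 CPM at 12 months. At 19 months it was at 43.0 and 40.9 CPM in the 2 libraries with ID number 9, at 10.7 and 15.2 in those with ID number 12 and at 11.9 in that with ID number 14. Nr4a2, an orphan nuclear receptor, was at 40.2 to 61.6 CPM at 12 months, at 54.8 and 63.5 with ID number 9, and at 11.6 to 23 in the other 3. The same split was present in WT at 19 months, where Fos was at 44.9 to 70.3 CPM with ID numbers 9 and 10 and at 7.02 and 11.8 with ID number 12.

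At an unadjusted p under 0.05, 6 of 19 immediate early genes were lower and 1 higher (6.85% and 5.77% of all genes). The list's median log2 fold change was −0.36 in SCA6 and 0.11 in WT. It was −0.57 without ID number 9 and −0.15 without ID number 12. Egr1 was at 20.6 to 31.1 CPM at 12 months and 16.5 to 23.1 at 19 months, where the library with ID number 14 was highest. Its log2 fold change was −0.39 ± 0.11 (adjusted p = 0.19 by edgeR, 0.041 by DESeq2), and Ier2 had −0.42 and Ier5 0.20. Transcripts of deep nuclei and brainstem neurons differed between ID numbers 9 and 12 in the opposite direction. The library with ID number 14 was low in Fos and Nr4a2 without being high in the deep nuclei transcripts. Slc6a5, the glycine transporter of glycinergic neurons, was at 42.8 to 52.5 CPM at 12 months, at 76.5 and 89.7 with ID number 12 at 19 months and at 36.6 to 41.4 in the other 3. Slc17a6, the glutamate transporter of deep nuclei neurons, was at 63.3 and 65.0 CPM with ID number 12, against 21.1 to 38.1 in the other 8 libraries. In WT at 19 months Slc6a5 was at 98.7 and 111 CPM with ID number 12 and at 41.3 to 45.5 otherwise. Of 20 genes on the deep nuclei and brainstem list 3 passed the filter, of which Th had a log2 fold change of 0.22. The part of these transcripts in the differences of immediate early genes was not tested.

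**Figure D4:**
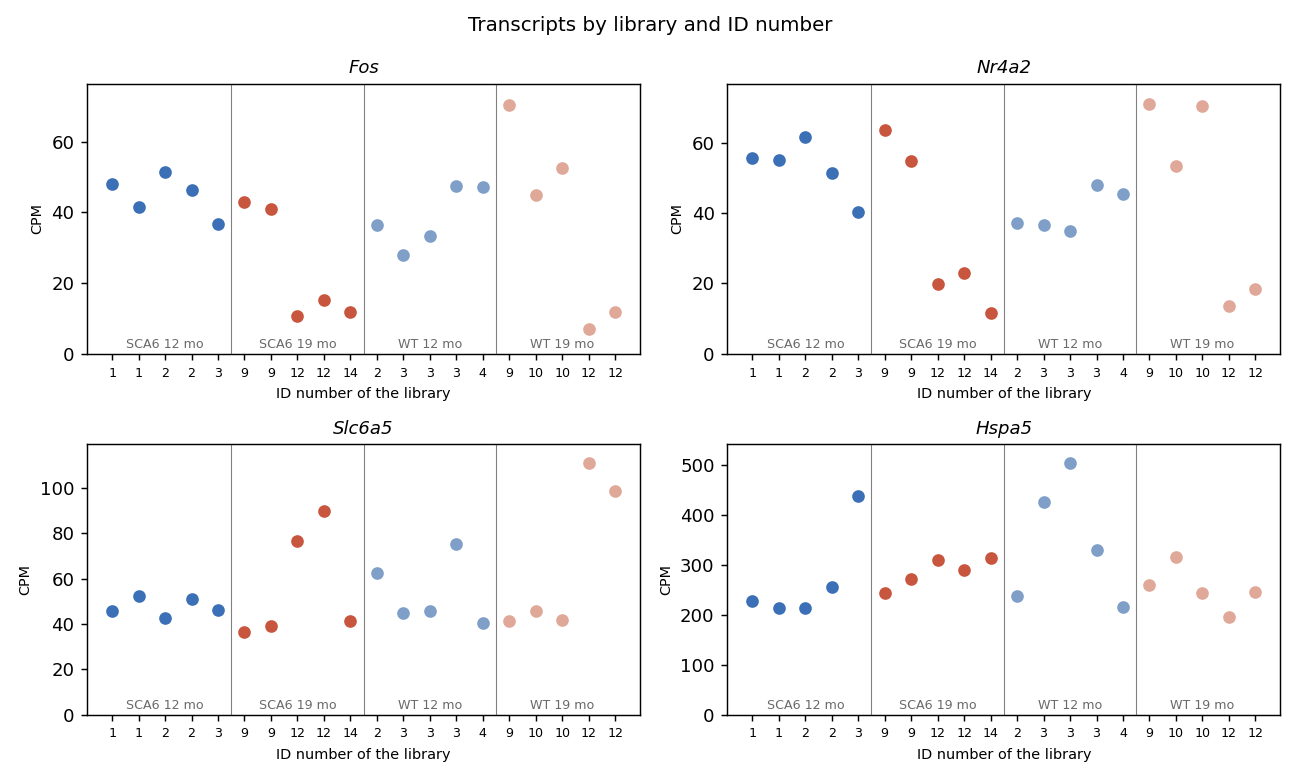
Abundance of Fos, Nr4a2, Slc6a5 and Hspa5 in SCA6 and WT libraries at 12 and 19 months (y axis: CPM, from 0; x axis: ID number of each library; lines divide the groups). Fos is at 7.02 to 15.2 CPM in the 4 libraries with ID number 12 of both genotypes, which are highest for Slc6a5.

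Leaving out ID number 9, which keeps 3 libraries at 19 months, edgeR called 347 genes (2.6%), 241 higher and 106 lower, of which 55 were among the 68 that DESeq2 called in all libraries. Among them were Serpina3n (log2 fold change 1.36), C3 (1.62), Gfap (0.84) and Bmf (−0.58), and also Fos (−1.81) and Nr4a2 (−1.53). Leaving out ID number 12, it called Gpr63 alone (0.00751%). Without 19 month replicate 1 edgeR called 5 genes, Serpina3n, C3, Gfap, Bmf and Tet1 (0.0376%), and without 12 month replicate 5 it called Per2 and Tet1 (0.0151%).

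No ER chaperone that the study names reached an unadjusted p under 0.05 in SCA6. Hspa5, the main ER chaperone (BiP), was at 227, 215, 214 and 256 CPM in 4 of the 12 month libraries and at 438 in replicate 5, against 244, 273, 309, 290 and 314 at 19 months. Replicate 5, the only 12 month SCA6 library with ID number 3, was highest of the 10 libraries. In WT at 12 months the 3 libraries with ID number 3 were at 330 to 505 CPM, and those with ID numbers 2 and 4 at 238 and 215. The log2 fold change of Hspa5 was 0.09 ± 0.17 in SCA6 and −0.43 in WT (adjusted p = 0.85 and 0.22 by edgeR).

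The study chose the 10 chaperones that it names from a gene network over all ages and both genotypes. The study also removed outlier samples without naming them, so which of the samples used here entered that network is not known. It named them for higher levels in SCA6 than in WT at an earlier age. They had a median log2 fold change of 0.05 in SCA6 and −0.35 in WT. In WT 7 were lower at an unadjusted p under 0.05 (13.1% of all genes there). The difference between the genotypes reached that p for 3 of 10 (6.67% of all genes). At 12 months ID number 3, with its high Hspa5, covers 1 SCA6 library but 3 WT libraries. The part of this imbalance in the difference was not tested. The SCA6 median was 0.22 without 12 month replicate 5, 0.27 in the libraries without Y-linked transcripts and −0.0061 without replicate 2. Replicate 5 summed to 2349 CPM over these genes, against 1510 to 1916 at 19 months. Hsp90b1, the ER member of the HSP90 family, was at 439 to 472 CPM and at 730 in replicate 5, against 470 to 601. Xbp1, the transcription factor of the response, was at 78.2 to 82.3 CPM and at 131 in replicate 5, against 85.6 to 106. In both, the 19 month values lay between the other 12 month libraries and replicate 5, apart from Hsp90b1 at 470 CPM in 19 month replicate 1. Log2 fold changes were 0.13 for Creld2, 0.10 for Pdia6, 0.07 for Hyou1 and Dnajb11, 0.05 for Calr, 0.04 for Pdia4, 0.03 for Pdia3, −0.06 for Dnajc3, and −0.08 for Dnajb9 and Atf6.

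The wider unfolded protein response list had a median of 0.03 over 47 genes (WT −0.10). Sec11c, of the signal peptidase, had 0.13, Sec63, of the translocon, was at 126 to 134 CPM against 111 to 122 (−0.12), and Sel1l, of ER-associated degradation, had −0.11. ATF4 response genes had a median of 0.03 over 26 genes. Ppp1r15a, which restores translation after stress, was at 18.5 to 22.1 CPM against 15.3 to 18.2 (−0.23), Phgdh, of serine synthesis, had 0.20 and Cebpg −0.14. The HSP90 and HSF1 list, of which the study names a few members, had a median of 0.04 over 34 genes (WT −0.11), with −0.12 for Hspa4l, 0.21 for Hspa2, −0.02 for Hsp90aa1, 0.01 for Hsp90ab1 and 0.02 for Ahsa1.

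Per2, a repressor of the circadian clock, was at 38.5, 45.2, 42.5, 44.1 and 58.9 CPM at 12 months and 65.0, 60.5, 63.6, 63.4 and 57.7 CPM at 19 months. Replicate 5 at 12 months lay within the older range. The log2 fold change was 0.45 ± 0.09 (adjusted p = 0.10 by edgeR, 0.001 by DESeq2) and 0.06 in WT. Bhlhe41, another clock repressor, was at 43.1 to 48.5 CPM against 51.5 to 60.9 (0.27, WT 0.28) and Cry1 had 0.22. Of 18 clock genes, 6 were higher and 1 lower at an unadjusted p under 0.05 (5.77% and 6.85% of all genes), and the median was 0.04. Of 16 glucocorticoid-responsive genes, 4 were higher at that p and 1 lower, and the median was 0.10 (0.034 without ID number 9), with 0.60 for Angptl4, a lipase inhibitor at about 1 CPM, 0.30 for Fkbp5 and −0.19 for Klf9.

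Oligodendrocyte markers had a median of 0.10, and of 0.01 without ID number 12. With all libraries 2 of 18 were higher at an unadjusted p under 0.05 (5.77% of all genes). Cnp, of myelin, had 0.16, Cldn11 0.17 and Sox10, their transcription factor, 0.28, with 23.7 and 24.4 CPM in the libraries with ID number 12 against 14.2 to 20.5 in the other 8. Precursor markers had a median of 0.10, with 0.28 for Olig2, 0.27 for Bmp4 and 0.30 for Olig1, and 0.01 without ID number 12. Endothelial and mural markers had a median of 0.03, with 0.30 for Kcnj8 and Vwf and −0.13 for Tek. Red blood cell genes had a median of 0.22 (WT 0.62), with 0.71 for Hba-a2 and 0.26 for Slc4a1. Of 22 lymphocyte genes Cd52 alone passed the filter, at 1.41 to 3.66 CPM against 2.46 to 5.79. Respiratory chain genes had a median of 0.05 (WT 0.16), with 0.15 for Uqcrc1, 0.13 for Atp5d and 0.19 for Cox8a, and cholesterol synthesis genes one of 0.01, with −0.11 for Ebp, 0.11 for Srebf2 and −0.07 for Sc5d.

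Lists of the extracellular matrix, meninges and choroid plexus had lower medians in WT than in SCA6. Matrix genes had a median log2 fold change of 0.08 in SCA6 and −0.23 in WT, and for 9 of 31 the difference had an unadjusted p under 0.05 (6.67% of all genes). Bcan, a proteoglycan of perineuronal matrix, was at 82.0 to 105 CPM against 98.5 to 130 in SCA6 (0.25, WT 0.01), Timp3, a metalloprotease inhibitor, at 168 to 199 against 192 to 208 (0.15, WT −0.10), and Dcn, a fibroblast proteoglycan, had 0.21 (WT 0.06). Meningeal and fibroblast markers had 0.19 in SCA6 and −0.22 in WT, with 0.23 for Apod, 0.44 for Nov and 0.39 for Aldh1a2. Choroid plexus and ependymal markers had −0.05 (0.017 without ID number 12) and −0.48, with −0.28 for Folr1, −0.27 for Kcne2 and −0.21 for Calml4 in SCA6. Relative to the 10 SCA6 libraries, the meningeal list's mean log2(CPM + 1) was −0.42 and −0.33 in the 19 month WT libraries with ID number 12. It was −0.08 to 0.02 in the other WT libraries of that age. The choroid list was at −0.61 and −0.23, against −0.29 to 0.02. The part of ID number in these genotype differences was not tested. Of 14 meningeal and 17 choroid markers listed, 13 and 17 passed the filter. These markers summed to 685 to 820 CPM and 2934 to 4345 CPM at 19 months in SCA6, against 606 to 710 and 2747 to 3991 at 12 months. Their part in the matrix difference was not tested.

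**Figure D5:**
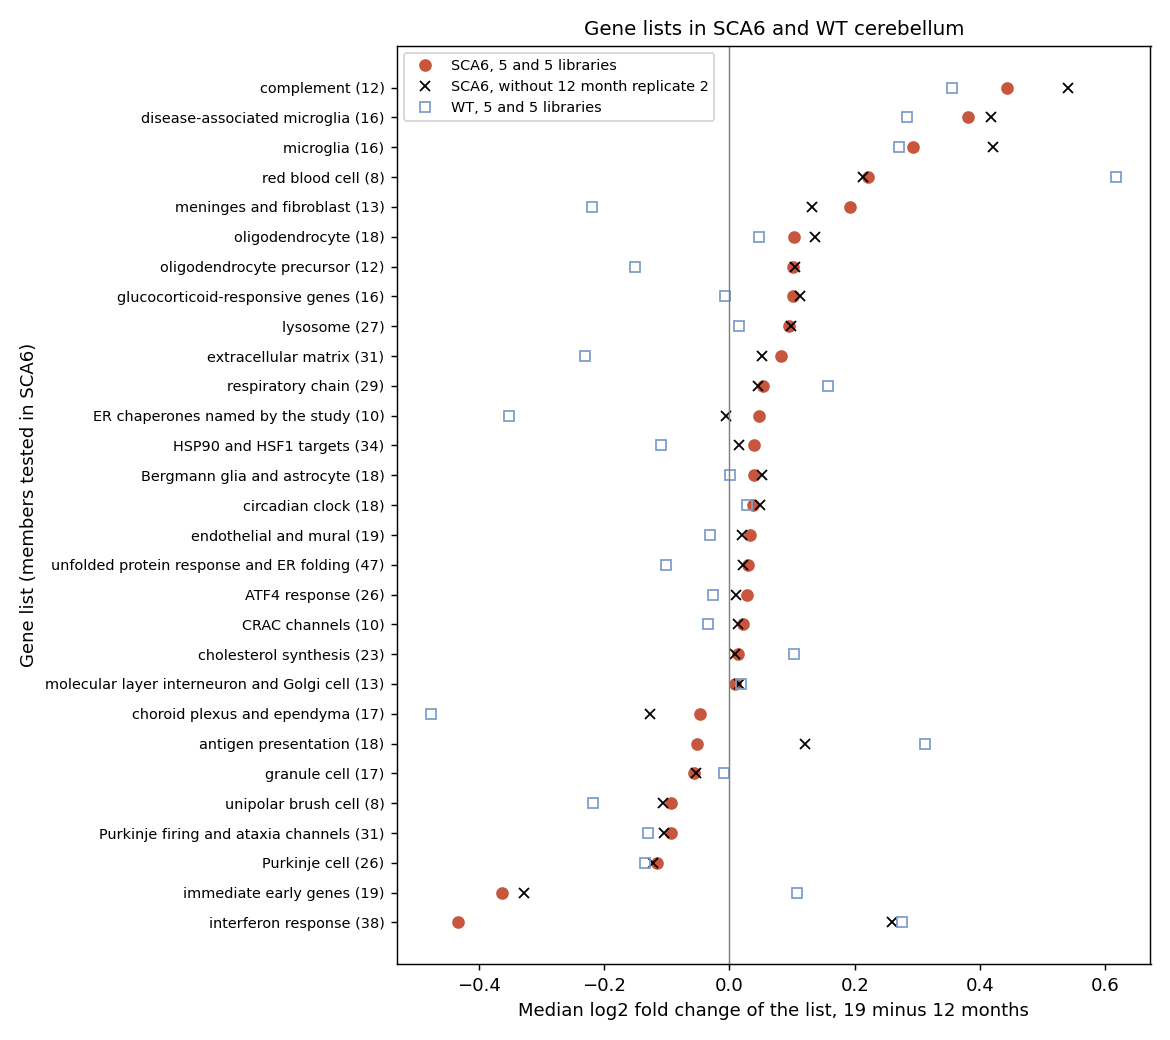
Median log2 fold change of each gene list with 8 or more tested members, 19 minus 12 months (x axis; y axis: list and number of members tested in SCA6; filled circles: SCA6; crosses: SCA6 without 12 month replicate 2; open squares: WT). Complement is at 0.44 in SCA6 and 0.36 in WT, and the interferon response list goes from −0.43 to 0.26 without that library.

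In WT edgeR called 117 genes (0.883%), 32 higher and 85 lower at 19 months, of which 116 were tested in SCA6, and every WT library moved that count by over 1.5 times when left out, to between 0 and 570. In SCA6, 105 had the same sign, as did 65.9% of all genes tested in both. Of the 105, 47 had an unadjusted p below 0.05 there, against 12.6% of all genes in either direction, and edgeR called none. The genotypes share ID numbers at both ages, so these signs are not independent. The WT calls that were higher had a median log2 fold change of 0.40 in WT and 0.16 in SCA6, and those that were lower −0.40 and −0.12. These genes were chosen on the WT values. X-linked genes that escape inactivation had a median of −0.20 in SCA6, with −0.20 for Kdm5c, −0.25 for Kdm6a and −0.16 for Ddx3x, and of 0.03 with Y-linked expression as a covariate. With that covariate edgeR called 1 gene, Itgax (0.00754%). In the 6 libraries without Y-linked transcripts, 4 at 12 and 2 at 19 months, it called 8 (0.0598%), all of them higher: Cst7, Itgax, Serpina3n, Gfap, C3, Timp1, Lyz2 and Lgals3. Fos, Nr4a2, Rora, Lpl, Usp18, Ifit1, Ifitm3, Isg15, Rsad2, C4b, Cst7, Timp1 and Lyz2 were named after their values were seen, and reads of members of the C4, Ifit, Serpina3, Lyz and haemoglobin families may have been divided between near copies.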

How the data were processed

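The authors used Trimmomatic on paired 150 bp reads, STAR for alignment to mm10 and HTSeq for counting. The deposited values are raw counts per gene. Overlapping genes may share counts, since neither strand setting nor annotation nor versions were stated in the sources used here. After TMM scaling, counts entered edgeR 4.0.16 (quasi-likelihood, Benjamini-Hochberg adjustment) in R 4.3.3, over the 10 libraries of a genotype or 20 for the difference. Genes with a CPM of 1 or more in every library of either group were tested and called at an adjusted p of 0.05 and an absolute log2 fold change of 0.3. DESeq2 1.42.0 and limma 3.58.1 voom were alternatives. Other alternatives changed scaling, filter, covariates and libraries. CPM used scaling over 40 libraries.

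The members and gene lists were chosen with earlier results of these data known. The naming rule took called genes first, but edgeR called none in SCA6 or for the difference. The genes named were thus up to 3 members of each list with the smallest unadjusted p, with the genes that the study names. Others are said to be named after their values were seen. Some genes that the rule selects are not reported here. The fits were tested on simulated data. Chi-square per degree of freedom was 6.75 to 43.7 over 45 pairs of libraries, so none was a copy. Promoters came from RefSeq (GRCm38.p6). Positions came from the GENCODE annotation of GRCm38, in which 19580 of the 21967 symbols had a single position.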

Additional observations from a re-analysis of the deposited data

Results flagged for a closer look

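Of 264 groups of 5 libraries tested, 31 held a library that stood off from the other 4 by Dixon's 95% limit of 0.71. Chance flags about 1 in 20 groups, and genes of a list are not independent. In 16 of the 31 the library was 12 month replicate 2, high each time.

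In that library the list score (mean of log2(CPM + 1) over its genes, minus that of the 10 libraries) was 1.54 for the interferon response, against −0.41 to −0.15 in the other 4, and 0.204 for microglia, against −0.25 to −0.20. CPM there was 146 for Oasl2, 49.8 for Usp18, 108 for Ifit1, 193 for Ifit3, 21 for both Isg15 and Rsad2, 17.4 for Sp100 and 43.8 for Ifitm3. It was 72.8 for C4b, 9.38 for Trem2, 19.2 for Tyrobp, 6.27 for Cd68, 51.6 for Mpeg1 and 121 for Ctss, with Mpeg1 and Ctss, both microglial genes, at 30.6 to 35.4 and 59.3 to 69.8 CPM in the other 4.

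In 12 month replicate 5, the library with ID number 3, list scores were 0.438 for the ER chaperones, 0.173 for the unfolded protein response, 0.179 for HSP90 and HSF1 targets, −0.104 for cholesterol synthesis and −0.287 for X-linked genes that escape inactivation. CPM there was 438 for Hspa5, 730 for Hsp90b1, 131 for Xbp1, 384 for Calr, 19.5 for Creld2, 139 for Dnajc3 and 137 for Pdia6. That library alone held Y-linked transcripts at 12 months.

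At 19 months Serpina3n was at 4.57 CPM in replicate 1 (8.58 to 9.88 in the others), Itpr1 at 4109 in replicate 5 (3412 to 3553) and Folr1 at 21.7 in replicate 2 (17.1 to 18.2). These genes beyond the lists were named after their values were seen, and the cause of each deviation was not tested.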

How the results depend on the processing

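Of the values for named genes other than Cacna1a, 3225 kept direction and side of the threshold, 117 passed it in an alternative and 17 turned, and Cacna1a kept both in all 26. Of the list medians 809 moved by less than the spread between libraries and 22 by more. The main count of 0 SCA6 genes became 68 by DESeq2, 22 by voom, 2 in a joint fit of 8 groups, 1 with Y-linked expression as a covariate and 8 in libraries without Y-linked transcripts. With alternatives chosen after seeing the data it became 19 without 12 month replicate 2 with the covariate, 17 in a joint fit of the 4 SCA6 groups, 347 without ID number 9 and 1 without ID number 12. Leaving out a library gave 0 to 5. The count of members of the gene lists called, 0 of 557 at first, became 16, 4, 1, 1 and 7 of 557 to 564 in the planned fits. These fits called 0.513%, 0.166%, 0.0149%, 0.00754% and 0.0598% of all genes. In the first 3 added fits it became 9, 7 and 33 of 557 to 560, against 0.143%, 0.128% and 2.6% of all genes. With any 1 library left out it was 0 to 2, against at most 0.0376% of all genes. In WT the 117 calls became 481 by DESeq2 and 25 with the covariate, and 0 to 570 leaving out a library, with 570 without 12 month replicate 5, 0 without 19 month replicate 1, 3 or 5, and 1 to 49 without any other. Other scalings, filters, no minimum fold change and leaving out ID number 1 or 2 left the SCA6 count at 0, and the count for the difference between genotypes was 0 by DESeq2, with the replicate block, in the joint fit, with the covariate and without any single library, and was not refitted under the others. The cause was not tested. The lymphocyte list had no member under the CPM filter of 5 and gave no value there.

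Replicate numbers are shared between the ages. Deviations of same-numbered libraries correlated at −0.07 to 0.28, above 0.1 in 2 of 5 pairs, and 3 of 5 libraries correlated best with their own number. So few pairs cannot decide whether the numbers pair the samples, and the main fit used no pairing. With the replicate number as a block edgeR called 0 SCA6 genes and 128 WT genes.

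Directions turned for 10 of the genes chosen by the rule for named genes. Among others, Ifit1 went from −0.58 to 0.73, Usp18 from −1.03 to 0.63, Isg15 from −0.52 to 0.40 and Rsad2 from −0.46 to 0.35 without 12 month replicate 2. Without ID number 1 the log2 fold change was 0.27 for Iigp1, 0.44 for Oasl2, 0.54 for H2-Q7 and 0.47 for H2-Q6. Leaving out a library gave −1.47 to 0.54 for Oasl2, the latter without 12 month replicate 2, and 0.56 with the covariate as well. Without ID number 12 it was −0.040 for Olig1, −0.34 for Slc17a6 and −0.28 for Slc6a5. In libraries without Y-linked transcripts it was −0.19 for Slc17a6, −0.25 for Slc6a5, 0.044 for Kdm5c and 0.016 for Ddx3x. With the Y-linked covariate it was 0.0040 for Kdm6a and 0.047 for Ddx3x, and without replicate 2 besides, 0.0074 and 0.039. The SCA6 libraries held 44017163 counts or more, and depth bears most on genes near 1 CPM, such as Itgax and Angptl4.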
